A study of Homo sapiens with 6 samples.

Results

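The genes described here encode the NF-kB transcription factors, 2 of the proteins that hold them back, and inhibitors of apoptosis. They are RELA, RELB, REL, NFKB1 and NFKB2 (the subunits), NFKBIA and TNFAIP3 (the inhibitors), and BIRC2, BIRC3 and XIAP (the inhibitor of apoptosis, or IAP, genes). These 10 genes were chosen by name from the 20163 protein-coding genes of the GENCODE release 44 annotation on hg19 (GRCh37). For each, the open sites from 20 kb upstream of the gene to its end were taken from peak lists of ATAC-seq, which uses a transposase to insert adapters into accessible DNA. RELA, BIRC2 and BIRC3 lie on the long arm of chromosome 11 (11q), and the other 7 genes lie on other chromosomes.

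The study asked how SAP30, a subunit of the SIN3 chromatin complex, acts in triple-negative breast cancer cells. Chromatin was compared between Parental MDA-MB-231 cells, an established human triple-negative breast cancer line (3 libraries), and SAP30-KO1 cells, MDA-MB-231 in which SAP30 had been knocked out by CRISPR (3 libraries). The knockout line was made as a mixture of several selected knockout cells, and a second knockout line was not analysed here. The paper states that cells given the CRISPR vector were treated with puromycin before knockout cells were selected. The comparator here was Parental cells, not the scrambled control line of other experiments in the paper. No drug or cytokine was named in the labels of either group, and the labels do not say whether the libraries of a group came from separate cultures, so p-values measure only the spread between these libraries.

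NF-kB proteins bind DNA as dimers at kappaB sites and switch on genes of inflammation and survival. IkappaB proteins such as the NFKBIA product hold the dimers in the cytoplasm until upstream kinases mark them for destruction. Several members are themselves NF-kB target genes in many cell types: NFKBIA and TNFAIP3 feed back to stop the signal, and BIRC3 blocks cell death downstream of TNF receptors.

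The deposited lists held 29762 to 40650 summits per library, and each summit carries the −log10 q value of its peak as a score. A score was turned into its percentile rank within its own library, from 0 to 100, because the lists were called separately, and a promoter's rank is that of its highest summit within 1 kb of any start site of the gene. A promoter with no summit was given rank 0, which says that no peak passed the q value threshold of 0.05, not that the site was closed. Read depth is unknown, since no read counts were given. Of the line's marker genes, VIM and CD44 had a promoter summit in all 6 libraries and AXL and ZEB1 in 3, whereas the leukocyte genes PTPRC and CD3E had none. The luminal genes ESR1 and PGR each had one in 1 library, FOXA1 in 2 and GATA3 in 5. Peak positions cannot check a knockout, and the SAP30 promoter itself ranked 76.9 ± 10.6 (SD, n = 3) in Parental and 70.3 ± 20.1 in SAP30-KO1 libraries.

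Among all 12564 protein-coding genes with a promoter summit in any library, 4.58% had ranks that were lower in every SAP30-KO1 library than in every Parental library, and 6.01% had ranks that were higher in this way. The lowest p-value that 3 libraries against 3 can give in the exact two-sided permutation test is 0.10, and after Benjamini-Hochberg adjustment over the 12564 genes no gene went below 0.945. Differences are therefore given with the values of each library, and "apart" is used for groups whose ranks do not overlap. With 1 library left out, groups already apart can only stay apart and others become apart more easily. No share of all genes was computed for that case.

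The promoters of 9 of the 10 genes had a summit in at least 1 library and those of 7 had one in all 6. TNFAIP3 and BIRC3 were the 2 members whose promoter ranks were lower in every SAP30-KO1 library, against the background share of 4.58% of genes, and 0 members were higher in every one, against 6.01%. Of the 10 differences in mean rank, 5 were negative, 4 positive and 1 zero, with a median of -2.60 percentile points, beside a median of 0.679 over all genes tested. RELA, without a summit, enters the first median as 0, whereas the second covers only genes with a promoter summit. BIRC2 and BIRC3, both with negative differences, lie on 11q, as do 486 of the 12564 genes.

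**Figure D1:**
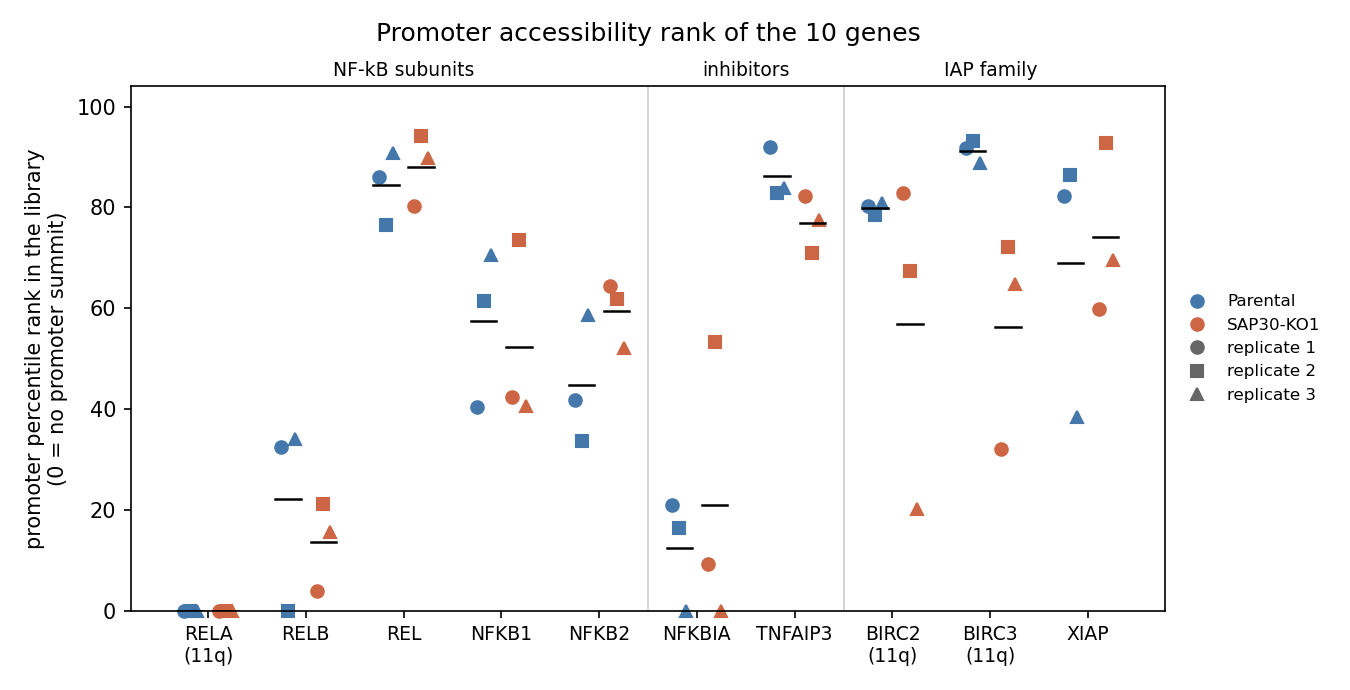
Promoter percentile rank (vertical axis, 0 to 100 within each library) of each of the 10 genes in the 3 Parental (blue) and 3 SAP30-KO1 (orange) libraries, with a marker shape for each replicate number and a black bar at the mean of 3. BIRC3 lay between 88.8 and 93.1 in Parental and between 32.1 and 72.1 in SAP30-KO1 libraries, TNFAIP3 was the other gene with separate groups, and RELA lay at 0 in all libraries.

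Ordered by the mean over all 6 libraries, REL had the highest promoter rank (86.3 ± 6.70, SD, n = 6), followed by TNFAIP3 (81.6 ± 6.96), BIRC3 (73.8 ± 23.4), XIAP (71.5 ± 20.1), BIRC2 (68.3 ± 24.2), NFKB1 (54.8 ± 15.5) and NFKB2 (52.1 ± 12.1). RELB (17.9 ± 14.2) and NFKBIA (16.7 ± 19.9) were far lower, and RELA was at 0. Most neighbours in this order could not be told apart: REL was above TNFAIP3 in 3 of 6 libraries, and BIRC3 above XIAP in 3 of 6. The exception was the step from NFKB2 to RELB, which was present in 6 of 6 libraries.

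The DNA of most of these promoters carries a match to the recognition site of the family. In the 300 bases from 250 upstream to 50 downstream of the canonical start site, the kappaB consensus occurred on either strand in 7 of the 10 genes, against 6.51% of the 20163 promoters of the same length, with 12 matches in all, some overlapping. RELA, BIRC2 and XIAP were the 3 genes without a match. The AP-1 motif TGANTCA, which reads the same on both strands, occurred in 0 of the 10 promoters, against 5.43% of all promoters. The 20163 promoters were not matched to the 10 for G and C content, so these shares may compare unlike sequences. A match says only that these letters are present. Matches of RELB, REL, NFKB1, NFKB2 and NFKBIA are shown with 10 bases on each side because the rule that chose these genes did not use them; coordinates are GRCh37, each sequence runs 5′ to 3′ on the strand of the gene, and capitals mark the kappaB match.
RELB, chr19:45504581-45504610, plus strand: gtgacgcgtgGGGGTTTTCCcgttccccag
RELB, chr19:45504653-45504682, plus strand: cggcggcgccGGGGAATTCCgccgccccgc
REL, chr2:61108652-61108681, plus strand: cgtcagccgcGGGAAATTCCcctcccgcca
NFKB1, chr4:103422457-103422486, plus strand: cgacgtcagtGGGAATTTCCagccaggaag
NFKB2, chr10:104155276-104155305, plus strand: aacccccaccGGGGCTTCCCggattctcct
NFKB2, chr10:104155431-104155460, plus strand: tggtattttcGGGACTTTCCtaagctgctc
NFKBIA, chr14:35874017-35874046, minus strand: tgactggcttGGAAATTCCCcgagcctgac

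RELA (ENSG00000173039.20_18, chr11:65421070-65430561, minus strand), which encodes the p65 subunit of the most common NF-kB dimer, had no summit in its promoter or anywhere in its window in any of the 6 libraries. From its canonical start site, the nearest summit on the side of lower coordinates was 10.1 kb away in Parental replicate 1, 24.9 kb in replicate 2 and 47.7 kb in replicate 3, and 47.5, 15.5 and 47.3 kb away in SAP30-KO1 replicates 1, 2 and 3. On the other side, the distances were 57.9, 49.5 and 49.1 kb in Parental and 49.3, 155.4 and 49.6 kb in SAP30-KO1 libraries. The RELA gene thus sat in a gap without called peaks in both groups, and no difference between the groups was measurable there. The 300 promoter bases of RELA were 77% G and C, above 90.2% of promoters. Of the 5771 genes with 70% G and C or more there, 24.8% had no promoter summit in any library, a smaller share than the 26.0% at 60 to 70%, 43.97% at 50 to 60% and 75.6% below 50%. A summit in all 6 libraries, however, was less frequent at 70% or more than at 60 to 70%. The genes at 70% or more were not divided further. Whether G and C content bears on the missing RELA summit was not tested.

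RELB (ENSG00000104856.15_12, chr19:45504719-45541450, plus strand) encodes the main partner of p52 in the noncanonical pathway. Its promoter ranked 32.4, 0 and 34.1 in Parental replicates 1, 2 and 3, and 4.03, 21.2 and 15.6 in SAP30-KO1 replicates 1, 2 and 3. The means of 22.2 ± 19.2 and 13.6 ± 8.75 (SD, n = 3) differed by -8.59 (exact permutation p = 0.6). The overlap rested on Parental replicate 2, which had no RELB summit. Without that library the difference was -19.7 and the groups were apart, whereas it was -2.62 without Parental replicate 3, -3.46 without Parental replicate 1 and -3.80 without SAP30-KO1 replicate 1.

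REL (ENSG00000162924.16_13, chr2:61108626-61158747, plus strand) encodes c-Rel, a subunit best known from lymphocytes. Its promoter locus (chr2:61108177-61109069, median summit in an exon of REL) ranked 86.1, 76.6 and 90.8 in Parental and 80.2, 94.1 and 89.8 in SAP30-KO1 libraries, so each group spanned most of the range of the other. The difference was 3.55 (84.5 ± 7.24 against 88.1 ± 7.10, exact p = 0.6) and turned to -0.399 without Parental replicate 2. Of 9 protein-coding neighbours within 1 Mb, 7 had a higher mean rank in SAP30-KO1, and the median difference over the 9 was 20.7. Of the 9, 3 (USP34, FAM161A and CCT4) were higher in every SAP30-KO1 library, as were 6.01% of all genes. PUS10 and PEX13, counted separately among the 9, share their promoter summits. CCT4, a chaperonin subunit gene, ranked 22.997, 13.3 and 27.6 in Parental and 46.5, 59.6 and 62.7 in SAP30-KO1 libraries.

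NFKB1 (ENSG00000109320.14_16, chr4:103422487-103538459, plus strand) encodes p105, the precursor of p50. Promoter ranks were 40.4, 61.4 and 70.6 in Parental and 42.5, 73.6 and 40.7 in SAP30-KO1 libraries. Means of 57.4 ± 15.5 and 52.2 ± 18.5 differed by -5.21 (exact p = 1), which turned to 1.37 without Parental replicate 3 and to 0.583 without SAP30-KO1 replicate 3. In 5 of the 6 libraries this value came from a locus 0.4 kb inside the gene (chr4:103422615-103423426), which ranked 40.4, 61.4 and 70.6 against 42.5, 73.6 and 28.4. A locus 0.2 kb upstream had a summit in Parental replicate 3 (41.8) and SAP30-KO1 replicate 3 (40.7) alone, and set the promoter rank of the latter.

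NFKB2 (ENSG00000077150.21_15, chr10:104153867-104162281, plus strand), which encodes p100, the precursor of p52 and the substrate of the noncanonical pathway, was the member with the largest positive difference. By the highest summit at any of its start sites, its promoter ranked 41.9, 33.7 and 58.8 in Parental and 64.4, 61.9 and 52.1 in SAP30-KO1 libraries, a difference of 14.7 (44.8 ± 12.8 against 59.5 ± 6.47, exact p = 0.2). The value of Parental replicate 3 came from a summit at an internal start site that no other library had. The groups were apart without that library, with a difference of 21.6, and also without SAP30-KO1 replicate 3 (18.3). The difference was 9.13 without Parental replicate 2 and 8.002 with promoters of 2.5 kb, with the groups overlapping in both cases.

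At the locus over the first NFKB2 start site (chr10:104153741-104154610), which had a summit in all 6 libraries, ranks were 41.9, 33.7 and 29.97 in Parental and 64.4, 61.9 and 52.1 in SAP30-KO1 libraries. Every SAP30-KO1 library was above every Parental library here, by 24.3 on average (35.2 ± 6.10 against 59.5 ± 6.47), with an exact permutation p of 0.1 and a Benjamini-Hochberg adjusted p of 0.576 over the 32889 loci present in at least 3 libraries. This was the 1 locus of the members that was apart in the higher direction, as were 10.1% of those 32889 loci. The canonical start site, 1.3 kb further into the gene, had no summit within 1 kb in any library. The 300 bases around the median summit of this locus held 3 kappaB matches, 2 of them overlapping. They lay 52 to 81 bp from the median of 7 summits that spanned 369 bp. Measured from the canonical start site, the matches began at -1234, -1233 and -1205. The highest summits lay at -1281 and -1264 in Parental replicates 1 and 2. In SAP30-KO1 libraries they lay farther from the matches, at -1471, -1433 and -1456. The matches are shown with capitals.
NFKB2, chr10:104154218-104154247, plus strand: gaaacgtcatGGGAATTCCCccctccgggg
NFKB2, chr10:104154247-104154276, plus strand: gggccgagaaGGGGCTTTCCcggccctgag

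A distal locus near the end of NFKB2 (chr10:104161360-104161891, in an exon) had summits in Parental replicate 1 (rank 28.5) and replicate 2 (53.7) and in no other library. With 2 Parental libraries of 3, it did not meet the definition of a locus present in one group only. Such loci, with a summit in all 3 libraries of one group and none of the other, made up 2.31% of all 56413 loci, and 0 of the 20 loci in the windows of the 10 genes were of this kind.

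NFKBIA (ENSG00000100906.12_10, chr14:35870285-35873955, minus strand), the gene of IkappaB-alpha, had weak and irregular promoter summits. The ranks were 20.9, 16.4 and 0 in Parental and 9.39, 53.4 and 0 in SAP30-KO1 libraries, so each group had 1 library with no promoter peak. The difference of 8.48 (12.4 ± 11.01 against 20.9 ± 28.5, exact p = 0.9) came from SAP30-KO1 replicate 2 and was -7.75 without it. An intergenic locus 9.9 kb upstream (chr14:35883435-35884158) ranked 49.98, 68.0 and 0 in Parental and 0, 0 and 42.3 in SAP30-KO1 libraries, and the groups overlapped. Apart from SAP30-KO1 replicate 2, the NFKBIA promoter ranked at 20.9 or below in every library.

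TNFAIP3 (ENSG00000118503.18_14, chr6:138188351-138204451, plus strand) encodes A20, the ubiquitin-editing enzyme that ends NF-kB signalling. Its promoter locus (chr6:138187948-138188761) ranked 91.9, 82.8 and 83.9 in Parental and 82.2, 71.0 and 77.5 in SAP30-KO1 libraries. All 3 SAP30-KO1 libraries were lower than all 3 Parental libraries, although the highest of them was 0.609 percentile points below the lowest Parental library. The means of 86.2 ± 4.95 and 76.9 ± 5.64 differed by -9.29 (exact permutation p = 0.1, adjusted p = 0.945 over all genes). The underlying scores were 14.1, 10.8 and 10.3 in Parental and 10.2, 9.34 and 9.73 in SAP30-KO1 libraries. The groups overlapped at this promoter when only summits with q of 0.0001 or less were kept (difference -10.4) and with the same number of top-ranked summits per library (-12.5). With the mean rank of all promoter summits the difference was -20.7, since SAP30-KO1 replicate 2 had a second promoter summit at rank 2.78.

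A second TNFAIP3 locus, 13.5 kb upstream in an intron of the long noncoding RNA gene WAKMAR2 (chr6:138174460-138175261), had lower ranks than the promoter in every library. It ranked 29.3, 44.6 and 17.2 in Parental and 15.5, 0 and 5.29 in SAP30-KO1 libraries, again with the groups apart. The difference was -23.4 (30.3 ± 13.8 against 6.92 ± 7.86, exact p = 0.1, adjusted p = 0.576 over all loci), and the groups overlapped at q of 0.0001 or less (-11.8) and with equal numbers of top-ranked summits (-15.7). The loci of chromosome arm 6q present in all 6 libraries had a median shift of 1.38, and of 7 neighbouring genes within 1 Mb, 5 had a higher mean rank. IFNGR1, the interferon-gamma receptor gene, was the 1 neighbour of the 7 apart in the lower direction, as were 4.58% of all genes. It ranked 92.9, 92.1 and 95.0 in Parental and 82.8, 83.8 and 73.3 in SAP30-KO1 libraries.

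The TNFAIP3 promoter holds 2 kappaB matches 17 and 29 bp from the median summit, the shortest such distances among the members' promoters. The 6 summits there spanned 313 bp, however. Measured from the canonical start site, the matches began at -67 and -55. The highest summits lay at -52, -49 and -106 in Parental and at -136, -198 and 115 in SAP30-KO1 libraries. The upstream locus holds an AP-1 motif and no kappaB match. The stretch just upstream of the gene and the upstream locus are printed because both were lower in SAP30-KO1; capitals mark kappaB matches in the first and the AP-1 motif in the second.
TNFAIP3, chr6:138188146-138188350, plus strand: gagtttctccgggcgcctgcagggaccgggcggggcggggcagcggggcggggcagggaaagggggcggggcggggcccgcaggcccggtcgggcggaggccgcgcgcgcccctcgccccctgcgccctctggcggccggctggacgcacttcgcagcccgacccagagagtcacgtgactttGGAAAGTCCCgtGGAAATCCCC
TNFAIP3, chr6:138174752-138175051, plus strand: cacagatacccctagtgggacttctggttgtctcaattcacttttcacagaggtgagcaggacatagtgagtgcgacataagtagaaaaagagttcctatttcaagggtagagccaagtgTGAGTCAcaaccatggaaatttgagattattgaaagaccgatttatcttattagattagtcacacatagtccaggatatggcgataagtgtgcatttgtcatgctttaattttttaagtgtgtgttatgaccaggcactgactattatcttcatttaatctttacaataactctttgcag

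**Figure D2:**
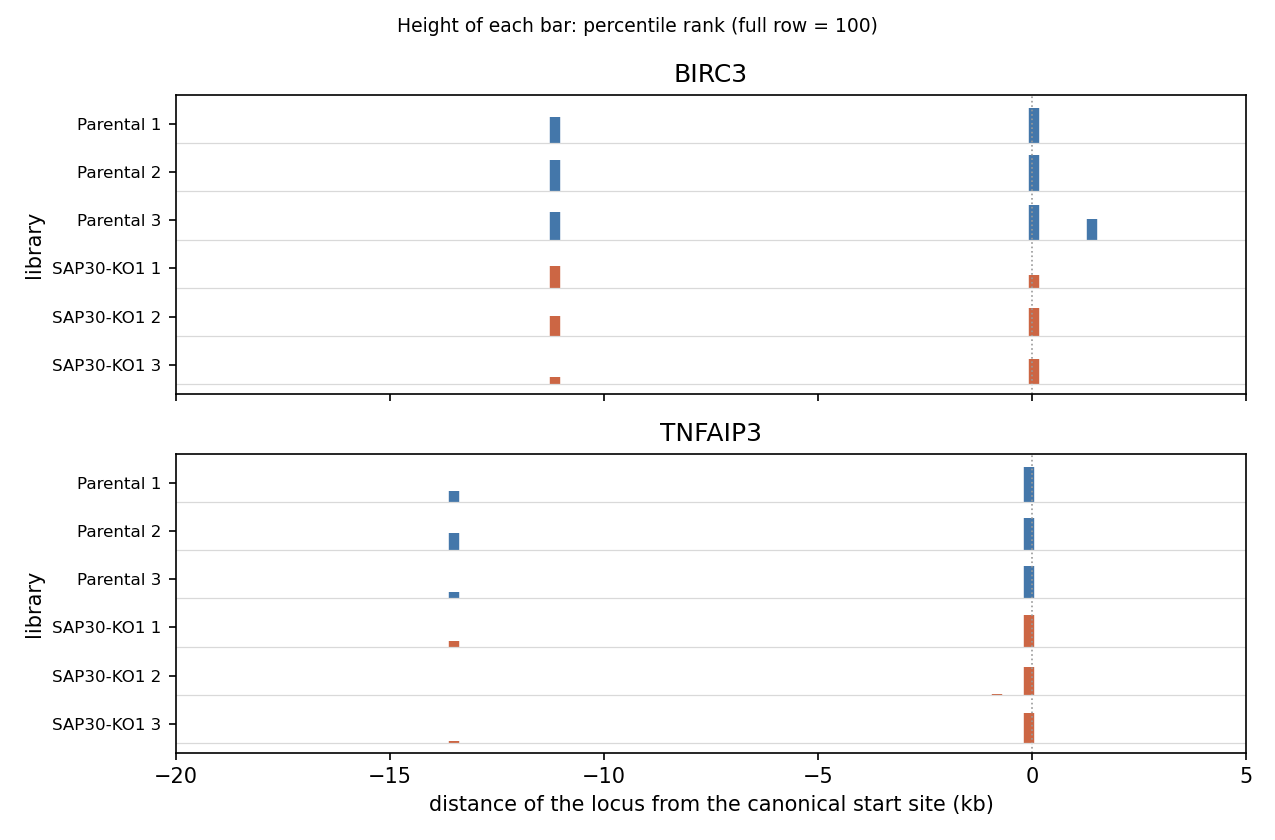
Open loci within 20 kb upstream and 5 kb downstream of the canonical start sites of BIRC3 (top) and TNFAIP3 (bottom), by distance in kb on the horizontal axis and with 1 row per library. Bar height is the percentile rank, with a full row at 100; at BIRC3 the upstream bar and the promoter bar were both lower in all 3 SAP30-KO1 rows, and at TNFAIP3 the upstream bar was lower in all 3 and missing in replicate 2.

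BIRC3 (ENSG00000023445.17_12, chr11:102188215-102210134, plus strand) encodes cIAP2, a ubiquitin ligase that binds TNF receptor complexes. Its promoter locus (chr11:102187768-102188563) was among the strongest of the members in Parental cells, at ranks of 91.7, 93.1 and 88.8, and stood at 32.1, 72.1 and 64.8 in SAP30-KO1 libraries. The groups were 16.7 percentile points apart at their nearest. The means of 91.2 ± 2.18 and 56.3 ± 21.3 differed by -34.9, the largest difference of the 10 genes (exact permutation p = 0.1, adjusted p = 0.945). As scores, the summits had 14.0, 15.2 and 12.01 in Parental and 4.75, 9.55 and 7.72 in SAP30-KO1 libraries. The size depended on SAP30-KO1 replicate 1: without it the difference was -22.8. Groups already apart can only stay apart when a library is left out.

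An intergenic locus 11.1 kb upstream of BIRC3 (chr11:102176732-102177456) was the only distal locus of the 10 genes with a summit in all 6 libraries. It ranked 68.2, 81.9 and 72.6 in Parental and 57.2, 52.6 and 17.4 in SAP30-KO1 libraries, so it too was lower in every SAP30-KO1 library. The difference was -31.9 (74.2 ± 7.02 against 42.4 ± 21.8, exact p = 0.1, adjusted p = 0.576) and shrank to -19.4 without SAP30-KO1 replicate 3. The 2 BIRC3 loci reached their lowest rank in different libraries, the promoter in replicate 1 and the upstream locus in replicate 3. The promoter holds 2 kappaB matches, 189 and 253 bp from the median of 6 summits that spanned 295 bp. The upstream locus holds neither motif. Their sequences are printed as the pair of BIRC3 sites that were lower, with capitals at the kappaB matches.
BIRC3, chr11:102187965-102188214, plus strand: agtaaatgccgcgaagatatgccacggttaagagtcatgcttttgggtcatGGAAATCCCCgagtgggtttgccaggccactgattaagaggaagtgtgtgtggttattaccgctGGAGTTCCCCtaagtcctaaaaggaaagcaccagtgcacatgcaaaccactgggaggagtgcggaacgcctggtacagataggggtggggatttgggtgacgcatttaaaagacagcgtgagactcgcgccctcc
BIRC3, chr11:102177003-102177225, plus strand: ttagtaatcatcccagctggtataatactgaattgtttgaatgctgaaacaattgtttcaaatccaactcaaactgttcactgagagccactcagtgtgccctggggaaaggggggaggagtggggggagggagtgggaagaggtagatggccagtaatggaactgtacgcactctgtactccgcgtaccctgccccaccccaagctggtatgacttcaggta

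BIRC2 (ENSG00000110330.10_16, chr11:102217942-102249401, plus strand) encodes cIAP1, the close relative of cIAP2, and starts 29.7 kb from the BIRC3 start site. Its promoter locus (chr11:102217411-102218280) ranked 80.2, 78.4 and 80.8 in Parental and 82.8, 67.4 and 20.2 in SAP30-KO1 libraries. Parental libraries were within a few points of each other, whereas the SAP30-KO1 libraries ran from above all of them to far below. The difference of -23.03 (79.8 ± 1.25 against 56.8 ± 32.6, exact p = 0.4) was -4.73 without SAP30-KO1 replicate 3 and -36.1, with the groups apart, without SAP30-KO1 replicate 1. A locus 1.1 kb upstream (chr11:102216619-102217143) had summits in Parental replicates 2 and 3, at ranks of 47.5 and 43.2, and in no other library. It holds 2 kappaB matches, 1 of them 2 bp from the median summit, and that match is shown here with capitals at the consensus.
BIRC2, chr11:102216864-102216893, plus strand: tttgccccttGGAGTTCCCCagagagaagc

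XIAP (ENSG00000101966.14_7, chrX:122993562-123047822, plus strand) encodes the inhibitor that binds caspases directly. Promoter ranks were 82.3, 86.4 and 38.4 in Parental and 59.9, 92.7 and 69.5 in SAP30-KO1 libraries. The means of 69.0 ± 26.6 and 74.0 ± 16.9 differed by 5.01 (exact p = 0.8), and the difference turned to -10.3 without Parental replicate 3. An intergenic locus 13.3 kb upstream (chrX:122980280-122981009) ranked 0, 37.3 and 22.6 in Parental and 0, 23.5 and 42.3 in SAP30-KO1 libraries, with full overlap. This locus had the most AP-1 motifs of any locus of the 10 genes, 3 in 300 bases, and is shown with them in capitals as the contrast to the kappaB promoters.
XIAP, chrX:122980419-122980718, plus strand: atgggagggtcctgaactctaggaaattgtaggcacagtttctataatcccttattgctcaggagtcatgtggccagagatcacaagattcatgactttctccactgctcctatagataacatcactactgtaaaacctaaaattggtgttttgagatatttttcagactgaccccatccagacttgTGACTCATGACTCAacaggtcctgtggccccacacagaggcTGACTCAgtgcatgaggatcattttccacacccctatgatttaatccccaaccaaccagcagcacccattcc

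Across the 20 loci in the 10 windows, 12 were promoter loci and 8 distal. A summit was present in all 6 libraries at 8 loci, in 2 to 5 libraries at 9 and in 1 library at 3. In the 300 bases centred on the median summit, the kappaB consensus occurred at 5 of 20 loci (25.0%), against 4.94% of all 56413 loci, and AP-1 at 3 of 20 (15.0%), against 33.3%. The 56413 loci were not split into promoter and distal loci, so these shares may compare unlike mixes. In the 300-base promoters of all genes, AP-1 occurred in 5.43% and kappaB in 6.51%.

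**Figure D3:**
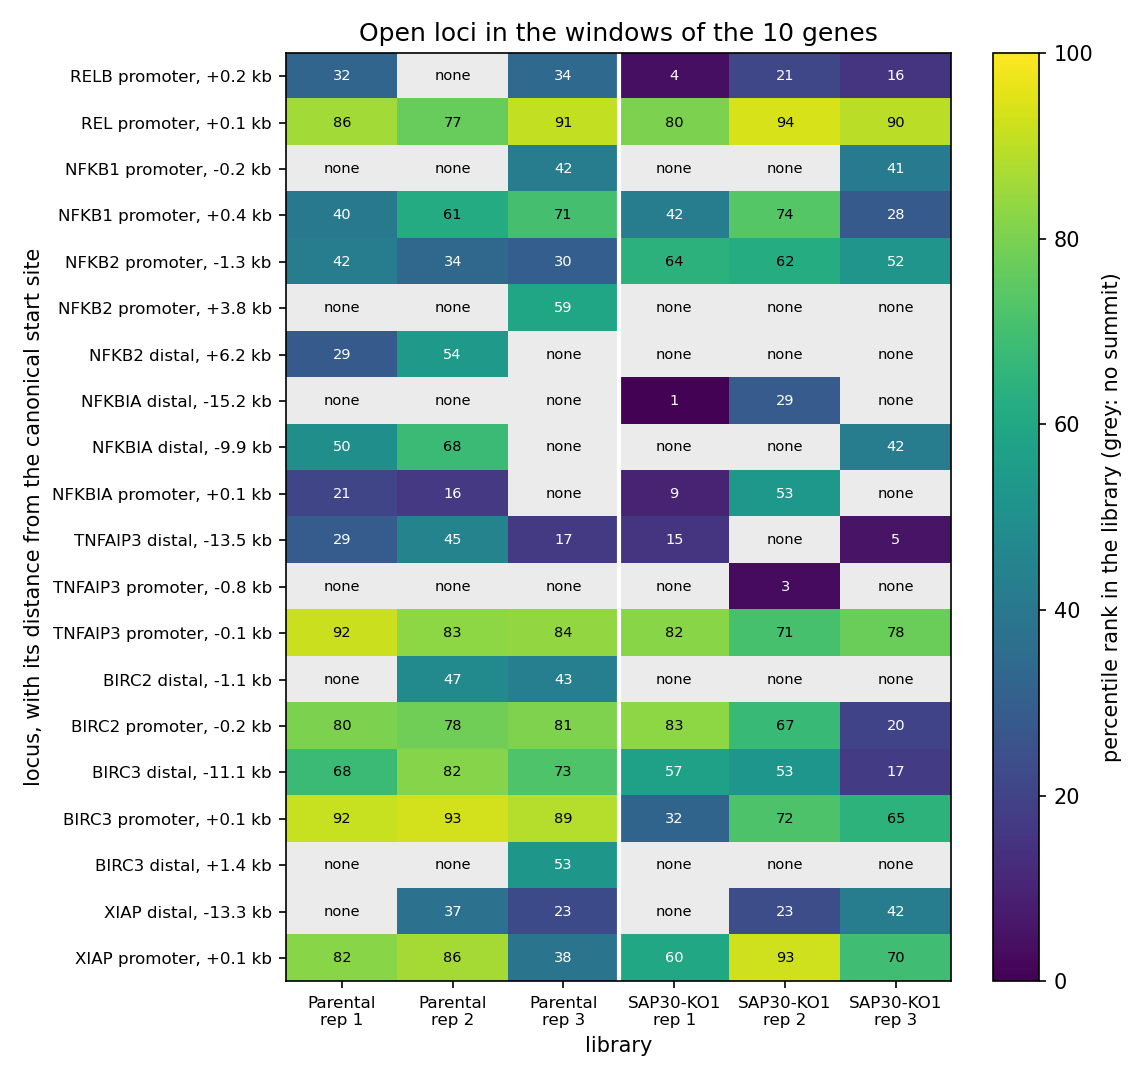
Percentile rank (colour and printed number) of the 20 loci in the windows of the 10 genes (rows, with the distance from the canonical start site) in each of the 6 libraries (columns); grey cells had no summit. REL ranked 76.6 or more in every library, both main BIRC3 rows turned darker in SAP30-KO1, and the first NFKB2 row turned lighter.

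The total number of summits in the windows was 14, 14 and 16 in Parental and 12, 14 and 14 in SAP30-KO1 libraries, over 536 kb. Means of 14.7 ± 1.15 and 13.3 ± 1.15 differed by -1.33 (exact permutation p = 0.6). Per 10000 summits of the library the means were 4.39 ± 0.507 and 3.85 ± 0.356, a difference of -0.539 (exact p = 0.3). By gene, mean summit numbers were lower in SAP30-KO1 for BIRC2, BIRC3 and NFKB2, higher for RELB and NFKBIA, and equal for the others. BIRC2 had 1, 2 and 3 summits in Parental and 1 in each SAP30-KO1 library. BIRC3 had 2, 2 and 3 against 2 in each, and NFKB2 had 2 in each against 1, 1 and 2. RELB had 1, 0 and 1 against 1 in each, and NFKBIA had 3, 2 and 0 against 2, 3 and 1. The groups overlapped in the raw number of open sites around these genes. They were apart when each library was reduced to the same number of top-ranked summits, with 14, 14 and 16 in Parental and 12, 10 and 13 in SAP30-KO1 libraries, a difference of -3 (exact p = 0.1). Of the 13 loci with a summit in at least 3 libraries, 4 were lower in every SAP30-KO1 library and 1 higher, where 7.31% and 10.1% of all such loci were. The 4 lower ones were the promoters and upstream loci of BIRC3 and TNFAIP3. On 11q, 2 of 3 such loci were lower, beside 33.2% of all such 11q loci. Elsewhere, 2 of 10 were lower and 1 was higher.

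The 3 genes on 11q were then set against the other 7. Averaged over RELA, BIRC2 and BIRC3, the promoter rank was 57.3, 57.2 and 56.6 in Parental and 38.3, 46.5 and 28.3 in SAP30-KO1 libraries, a difference of -19.3 (57.0 ± 0.409 against 37.7 ± 9.10). The other 7 genes averaged 56.6, 51.0 and 53.8 in Parental and 48.9, 66.8 and 49.3 in SAP30-KO1 libraries, a difference of 1.23 (53.8 ± 2.75 against 55.03 ± 10.2). So the mean of the 11q genes was lower in every SAP30-KO1 library, while the mean of the other 7 overlapped between the groups. These group means are descriptions, with no test, because the lower ranks of 11q were known when the genes were chosen, and RELA adds 0 to each library, so that BIRC2 and BIRC3 alone differed by -29.0 (85.5 ± 0.613 against 56.6 ± 13.7).

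BIRC2 and BIRC3 shared their direction with the whole arm. The 454 loci of 11q present in all 6 libraries had a median shift of -14.7 percentile points and 88.8% of them were lower in SAP30-KO1, and 22.2% of 486 genes on 11q had promoter ranks apart in the lower direction. Of 11q loci in at least 3 libraries, 33.2% were apart in that direction, beside 2 of the 3 such loci of BIRC2 and BIRC3. All 9 protein-coding neighbours of BIRC2 and BIRC3 within 1 Mb had a lower mean rank in SAP30-KO1 (median difference -7.86), and 5 were apart: CFAP300, YAP1, TMEM123, DCUN1D5 and DYNC2H1. TMEM123 ranked 69.2, 63.4 and 87.7 in Parental and 0, 56.6 and 0 in SAP30-KO1 libraries, and CFAP300 ranked 70.6, 71.5 and 53.3 against 0, 30.01 and 5.29, so 2 neighbours differed more than BIRC3 did. Around RELA, 44 of 62 neighbours had a lower mean rank (median difference over the 62, -5.74) and 9 were apart in that direction, with 0 in the other. Some of these neighbours share their promoter summits, and the 9 genes stand for 7 distinct promoters.

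**Figure D4:**
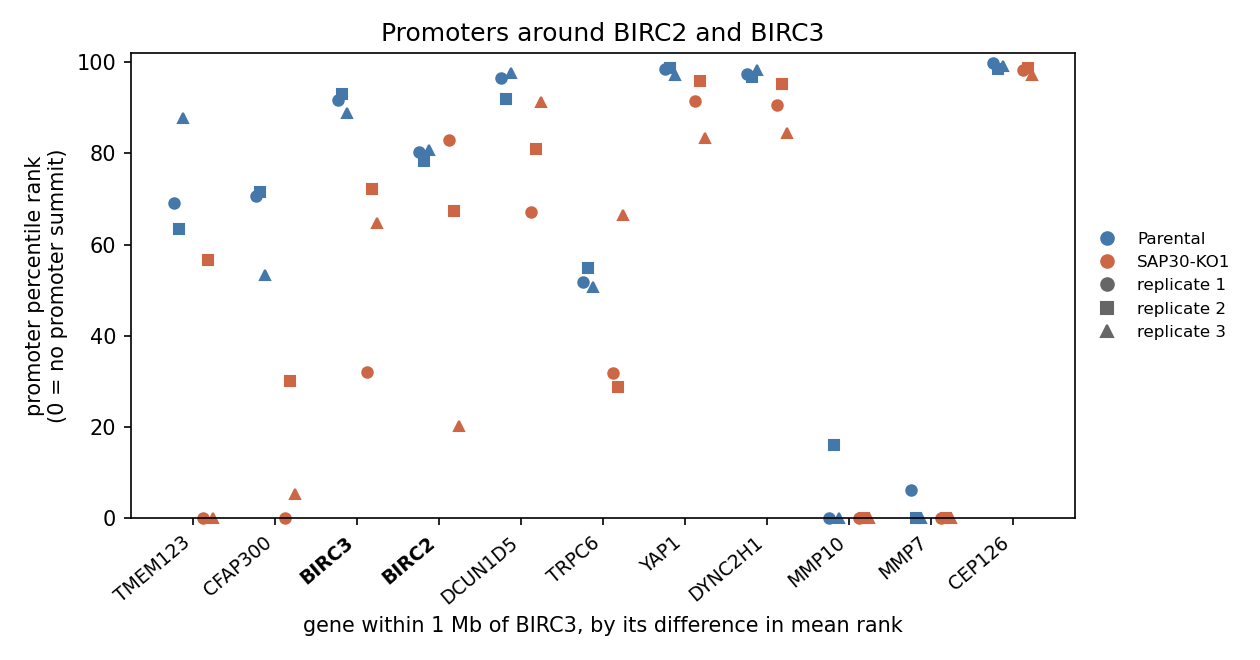
Promoter percentile rank (vertical axis) of BIRC2, BIRC3 and their 9 protein-coding neighbours within 1 Mb in the 3 Parental (blue) and 3 SAP30-KO1 (orange) libraries, ordered by the difference in mean rank. TMEM123 and CFAP300 stand left of BIRC3 with larger differences, and CEP126, at the right, ranked 97.2 or more in every library.

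Ranking each summit only among the summits of its own chromosome arm sets it beside the rest of its arm. Only called summits are ranked and a promoter without one stays at 0, so a shift that the whole arm shares may not be fully removed. On this scale BIRC3 ranked 87.6, 89.9 and 84.0 in Parental and 36.8, 77.3 and 70.2 in SAP30-KO1 libraries, a difference of -25.7 with the groups still apart. The BIRC3 upstream locus ranked 62.5, 76.9 and 65.9 against 64.0, 59.0 and 20.01, a difference of -20.8, and the groups then overlapped. BIRC2 differed by -13.2 with overlap, and TNFAIP3 by -11.4 with the groups apart, so the same 2 members were lower in every SAP30-KO1 library, where 4.24% of all genes were. XIAP, whose arm Xq had a median shift of 7.65, went from 5.01 to -0.246, and NFKB2 kept 14.4. The part of the arm-wide shift in the BIRC2 and BIRC3 values beyond this rescaling was not tested.

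**Figure D5:**
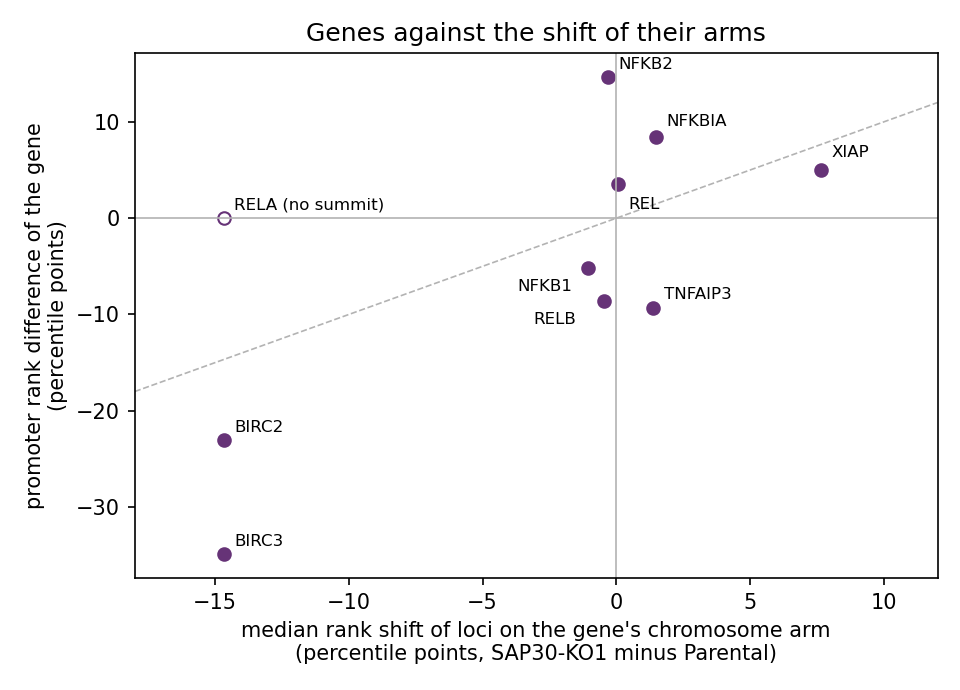
Difference in mean promoter rank of each gene (vertical axis, percentile points, SAP30-KO1 minus Parental) against the median shift of the loci on its chromosome arm (horizontal axis); the dashed line marks equal values and the open circle is RELA, which had no summit. BIRC3 (-34.9) and BIRC2 (-23.03) lie below the line at an arm shift of -14.7, while TNFAIP3 (-9.29) lies below it at an arm shift of 1.38.

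Other genes of the pathway came from a list of 37 genes of NF-kB signalling (receptors, adaptors, kinases, ubiquitin enzymes and other IkappaB family genes), of which 32 had a promoter summit in any library and 19 in all 6. Of the 32, 11 had a lower and 21 a higher mean rank in SAP30-KO1, with a median difference of 3.86 beside 0.679 over all genes, and 0 lay on 11q. In each direction 1 gene was apart, against 4.58% and 6.01% of all genes. CYLD, a deubiquitinase that restrains the pathway, ranked 98.8, 97.7 and 97.1 in Parental and 93.8, 94.2 and 95.8 in SAP30-KO1 libraries, a difference of -3.30. NFKBIZ, a nuclear IkappaB protein gene, ranked 87.5, 64.5 and 77.5 against 91.0, 98.3 and 91.3, a difference of 17.1.

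Of 30 apoptosis regulators (the other IAP genes, caspases and the BCL2 family), 22 had a promoter summit in any library and 14 in all 6. Mean ranks were lower in SAP30-KO1 for 10 and higher for 12, with a median difference of 1.25 beside 0.679 over all genes, and 1 of the 22 lay on 11q. None was apart in the lower direction and 1 in the higher, against 4.58% and 6.01% of all genes. That gene was APAF1, the core of the apoptosome, which ranked 89.5, 89.7 and 87.0 in Parental and 90.1, 95.4 and 98.5 in SAP30-KO1 libraries, a difference of 5.92.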

How the data were processed

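ATAC-seq libraries of MDA-MB-231 cells, 3 Parental and 3 SAP30-KO1, were grouped and numbered per the labels. The submitters' processing notes name FastQC (0.11.2), Trim Galore (0.4.5), Bowtie2 (2.3.3.1), Picard, MACS2 (2.1.0) and ChIPseeker, with hg19. The deposited lists hold, for each library, 1 summit position per peak and a score, the −log10 of the q value that the authors' MACS2 run gave at a threshold of 0.05. Offset correction for the transposase, blacklist filtering and handling of mitochondrial reads are not given in the sources used here, and an offset of a few bases is small beside the 1 kb promoter. Mitochondrial summits, 4 or 5 per library, counted in the ranks only. No count model could be run on summits.

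Percentile ranks, promoters (1 kb around any GENCODE release 44 start site, lifted to GRCh37), windows (20 kb upstream to the gene end) and loci (summits extended by 250 bp on each side and merged across libraries) were computed in Python 3.11.15 with numpy 2.4.6, scipy 1.17.1 and pysam 0.24.0. Groups were compared by exact two-sided permutation tests over 20 assignments, with Benjamini-Hochberg adjustment over all genes or all loci in at least 3 libraries. The functions were tested on simulated ranks. The members, lists and settings were chosen with earlier results of these data known. Named were all members, each of their promoter loci in all 6 libraries, distal loci with ranks apart or with the highest mean rank per gene, list genes with ranks apart and, chosen after their values were seen, other loci and neighbours. Sequence was read from the GRCh37 genome. Between 0.417% and 0.598% of summit positions were shared by any 2 libraries, so no library repeated another.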

Additional observations from a re-analysis of the deposited data

How the results depend on the processing

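Peak lists without read counts limit these results: depth is unknown, a missing summit is a value below the q threshold, and 3 libraries against 3 cannot go below p = 0.10 in an exact permutation test. The difference in summits stayed negative under all alternatives run. As a number of summits it ran from -3 with the same number of top-ranked summits per library, where the groups no longer overlapped, to -0.667 without Parental replicate 3 or SAP30-KO1 replicate 1. The replicate block (differences within pairs of equal replicate number) left it at -1.33 (exact sign-flip p = 0.5, smallest possible 0.25). The replicate numbers did not pair the libraries: deviations of same-numbered libraries over 16312 loci correlated at -0.0179, -0.0127 and -0.00320. The block leaves every mean difference unchanged by construction, and groups were not called apart under it, so it could change no call. For RELA, BIRC2 and BIRC3, the mean difference became -29.0 where libraries without a summit were left out, which drops RELA, and ran from -23.7 to -14.6 with 1 library left out. For the other 7 genes it changed sign to -0.865 with the canonical start site, -0.127 with ranks within the arm and -1.13 with the mean rank of promoter summits, and ran from -4.67 (without SAP30-KO1 replicate 2) to 4.27 with 1 library left out, with -0.145 without Parental replicate 2. Members lower in every SAP30-KO1 library numbered 1, BIRC3, at q of 0.0001 or less and with the same number of top-ranked summits, and 2 to 3 with 1 library left out. Members higher in every one numbered 0 to 1 with 1 library left out (NFKB2, without replicate 3 of either group). Loci in one group only also numbered 0 to 1: the BIRC2 locus at 1.1 kb without Parental replicate 1, the NFKB2 distal locus without Parental replicate 3 and an NFKBIA locus 15.2 kb upstream without SAP30-KO1 replicate 3. For these counts with 1 library left out, no share of all genes or loci was computed. With 1 library left out, single genes ran from -0.399 to 7.46 (REL), -15.9 to 1.37 (NFKB1), -7.75 to 18.9 (NFKBIA) and -10.3 to 13.7 (XIAP), and XIAP was -0.246 with ranks within the arm. Of settings added after seeing the data, the TNFAIP3 upstream locus overlapped between groups at q of 0.0001 or less (-11.8) and with the same number of top-ranked summits (-15.7), and the BIRC3 upstream locus overlapped with ranks within the arm (-20.8). The first NFKB2 locus remained apart in all settings run, between 21.6 and 35.3. Leaving out a library cannot make groups that are apart overlap, so only the other settings could have changed this. Where a construction is not named, the cause was not tested.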
